A study of Homo sapiens with 18 samples.

Results

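The collagen genes are the 44 protein-coding genes of GENCODE 29 whose symbol reads COL, a number, A and a number, taken from 35579 genes with a value in the deposited tables. They fall into 11 fibrillar genes, 6 basement membrane genes of type IV and 27 others, and 38 of them passed the filter on low counts. RNA-seq of polyadenylated RNA was read in U2OS, a human osteosarcoma cell line, with 6 groups of 3 libraries each. Of these, 4 groups were untreated lines with an integrated construct: mCherry alone, or mCherry joined to EWS-FLI1, to EWS-FLI1mut or to EWS(YS37)-FLI1. The other 2 were the mCherry-EWS-FLI1 line given 7.5 µM LY2835219, a CDK4/6 inhibitor also called abemaciclib, for 6 h or 24 h. EWS-FLI1 is the fusion oncoprotein of Ewing sarcoma, which joins part of EWSR1 to the DNA-binding part of the ETS factor FLI1. The labels do not say what the mut and YS37 changes are, whether a line is 1 clone or a pool, or which vehicle the untreated cells had. The libraries are labelled as biological replicates, but no label says that they came from separate cultures, so p-values measure only the spread between these libraries, which may be technical. The sample labels give 6 h and 24 h, whereas the treatment text gives other times; the sample labels are used here. In bulk RNA, fewer cells of a type and less RNA per cell cannot be told apart.

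Collagens are secreted proteins in which 3 alpha chains wind into a triple helix. Fibrillar collagens are trimmed outside the cell and pack into the cross-linked fibres that give bone and skin tensile strength; type I, made from COL1A1 and COL1A2, is the main protein of bone matrix and the classic product of osteoblasts. Type IV collagen forms the sheet-like network of basement membranes, type VI forms beaded filaments around cells, the FACIT collagens sit on fibril surfaces, and a few collagens span the cell membrane. ETS factors such as FLI1 bind DNA around a GGAA core, and EWS-FLI1 is known for binding runs of repeated GGAA.

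The type IV genes lie in 3 head-to-head pairs, on opposite strands. In GENCODE 29 these are COL4A1 and COL4A2 on chromosome 13, whose annotated ends overlap by 1422 bases there, COL4A4 and COL4A3 on chromosome 2, and COL4A6 and COL4A5 on chromosome X. The 250 bases before the RefSeq start site (GRCh38.p14) are shown for that first pair, whose genes were both higher with EWS-FLI1 than in each other untreated line, for COL16A1, which rose with EWS-FLI1 and EWS-FLI1mut, and for COL13A1 and COL11A1, which moved in opposite directions with EWS(YS37)-FLI1. Sequences read 5′ to 3′ on the strand of the gene, and capitals mark GGAA or, for a match on the other strand, TTCC. With these RefSeq starts COL4A1 and COL4A2 share 126 upstream bases, read on opposite strands.
COL4A1: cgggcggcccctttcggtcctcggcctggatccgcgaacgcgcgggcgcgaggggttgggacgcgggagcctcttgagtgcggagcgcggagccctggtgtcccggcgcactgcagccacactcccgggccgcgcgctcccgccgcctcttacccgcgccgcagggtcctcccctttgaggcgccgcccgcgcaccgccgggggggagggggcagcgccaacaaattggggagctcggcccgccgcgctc
COL4A2: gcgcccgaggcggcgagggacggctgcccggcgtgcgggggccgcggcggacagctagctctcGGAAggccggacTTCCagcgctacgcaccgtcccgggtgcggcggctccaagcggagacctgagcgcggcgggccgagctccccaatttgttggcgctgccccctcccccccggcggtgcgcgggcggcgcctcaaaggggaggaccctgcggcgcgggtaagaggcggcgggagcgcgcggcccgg
COL16A1: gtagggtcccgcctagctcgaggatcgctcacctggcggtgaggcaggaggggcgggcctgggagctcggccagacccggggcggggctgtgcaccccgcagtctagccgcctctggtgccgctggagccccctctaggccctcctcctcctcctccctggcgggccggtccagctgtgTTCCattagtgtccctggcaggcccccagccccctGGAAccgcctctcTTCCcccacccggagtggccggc
COL13A1: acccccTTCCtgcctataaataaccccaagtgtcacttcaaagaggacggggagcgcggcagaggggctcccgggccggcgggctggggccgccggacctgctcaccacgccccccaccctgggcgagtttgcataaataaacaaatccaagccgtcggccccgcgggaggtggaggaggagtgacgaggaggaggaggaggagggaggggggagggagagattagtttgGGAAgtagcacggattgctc
COL11A1: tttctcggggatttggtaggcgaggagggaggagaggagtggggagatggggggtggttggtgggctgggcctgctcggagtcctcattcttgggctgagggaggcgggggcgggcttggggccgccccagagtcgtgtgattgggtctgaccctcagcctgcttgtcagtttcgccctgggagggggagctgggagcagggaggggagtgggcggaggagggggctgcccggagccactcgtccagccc
The windows are chr13:110307158-110307407 (minus strand), chr13:110307034-110307283 (plus), chr1:31704018-31704267 (minus), chr10:69801656-69801905 (plus) and chr1:103108523-103108772 (minus). COL4A2 and COL13A1 each hold 2 matches of GGAA on either strand and COL16A1 holds 3, whereas none was found for COL4A1 and COL11A1. The RefSeq starts of COL4A2, COL11A1 and COL16A1 lie 1472, 350 and 302 bases from the GENCODE 29 gene starts. These windows fall inside the GENCODE genes, so they are not upstream of the starts annotated there. RefSeq windows of this kind were matched for 32 of the 44 genes. Genes without a match include COL1A1, COL3A1, COL5A2, COL6A1 and COL22A1. GGAA on either strand was in 28 of these 32, against 92.8% of 27305 promoter windows of all genes, so its presence is the usual case. The double core GGAAGGAA (either strand; it contains GGAA) was in 0 of 32, against 2.99% of all windows, and the longer ETS form CCGGAAGT, which also contains GGAA, was in 0 of 32 against 3.64%. Such matches describe letters in these windows only and show no binding.

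Library totals were 16261034 to 20270637 estimated counts. FLI1, which also reads the fusion constructs, averaged 0.55 CPM (counts relative to the library total, scaled by the trimmed mean of M values, TMM) in mCherry, 247 in EWS-FLI1, 642 in EWS-FLI1mut and 1019 in EWS(YS37)-FLI1, and 406 and 236 with LY2835219 for 6 h and 24 h; the construct level thus differed between the lines compared, and its part in the results was not tested. Of 7 osteoblast-lineage markers, RUNX2 averaged 44.6 to 83.8 CPM across groups, whereas SP7, IBSP and BGLAP stayed at or under 0.28, so these defining markers of mature osteoblasts were nearly absent. ALPL averaged 2.44 to 12.8 CPM and SPP1 2.67 to 11.2. The 7 markers summed to 87.7 to 96.5 CPM in mCherry, 100 to 111 in EWS-FLI1, 90.8 to 92.9 in EWS-FLI1mut, 73.5 to 77.8 in EWS(YS37)-FLI1, 78.5 to 80.4 at 6 h and 119 to 133 at 24 h, where 3 of 4 tested were higher than in untreated cells. The 3 epithelial markers summed to at most 8.28 CPM in any library, the 3 endothelial markers to at most 4.82 and the 3 blood markers to at most 2.3, and KRT19 and CD14 averaged at most 0.29 CPM. The 2 tested epithelial markers were higher in EWS-FLI1 than in EWS(YS37)-FLI1 and lower at 24 h than in untreated EWS-FLI1 cells. Of the endothelial markers 1 was higher and 1 lower than untreated at each drug time. The 2 tested blood markers were called in no comparison. The 4 fibroblast markers (PDGFRA, PDGFRB, LUM and DCN), which mesenchymal tumour lines also express, summed to 125 to 152 CPM in mCherry, 197 to 202 in EWS-FLI1, 123 to 130 in EWS-FLI1mut, 77.2 to 93.6 in EWS(YS37)-FLI1, 94.6 to 99.8 at 6 h of LY2835219 and 45.2 to 47.8 at 24 h, with DCN at or under 1.00 as a group mean throughout. Of the 4 fibroblast markers, 2 were higher and 0 lower than in mCherry with EWS-FLI1 (adjusted p under 0.05 by edgeR). EWS-FLI1mut had 0 higher and 1 lower, and EWS(YS37)-FLI1 had 0 and 3. Against untreated EWS-FLI1 cells 1 was higher and 2 lower at 6 h, and 0 and 3 at 24 h. Thus not every marker followed the sum. Shares of all genes called in each comparison are given below. The part of these marker lists in the collagen results was not tested.

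Across the 18 libraries 17 collagen genes averaged at least 10 TPM (a level relative to the library total and corrected for transcript length) and 17 averaged under 1. COL1A1 was the highest at 613 TPM, followed by COL4A2 at 181.5, COL6A2 at 163, COL6A1 at 123, COL5A1 at 87.2, COL4A1 at 82.9 and COL6A3 at 80.9. COL1A2, which codes for the partner chain of type I collagen, averaged 0.24 TPM, and 35.6% of that was assigned to a transcript annotated as a retained intron. The TPM ratio of COL1A1 to COL1A2 was between 1209 and 15780 in every library. Type I collagen RNA in these cells was thus almost all from COL1A1, and neither COL2A1 (0.89 TPM), the cartilage collagen, nor COL10A1 (0.33), the hypertrophic cartilage collagen, was much expressed.

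**Figure D1:**
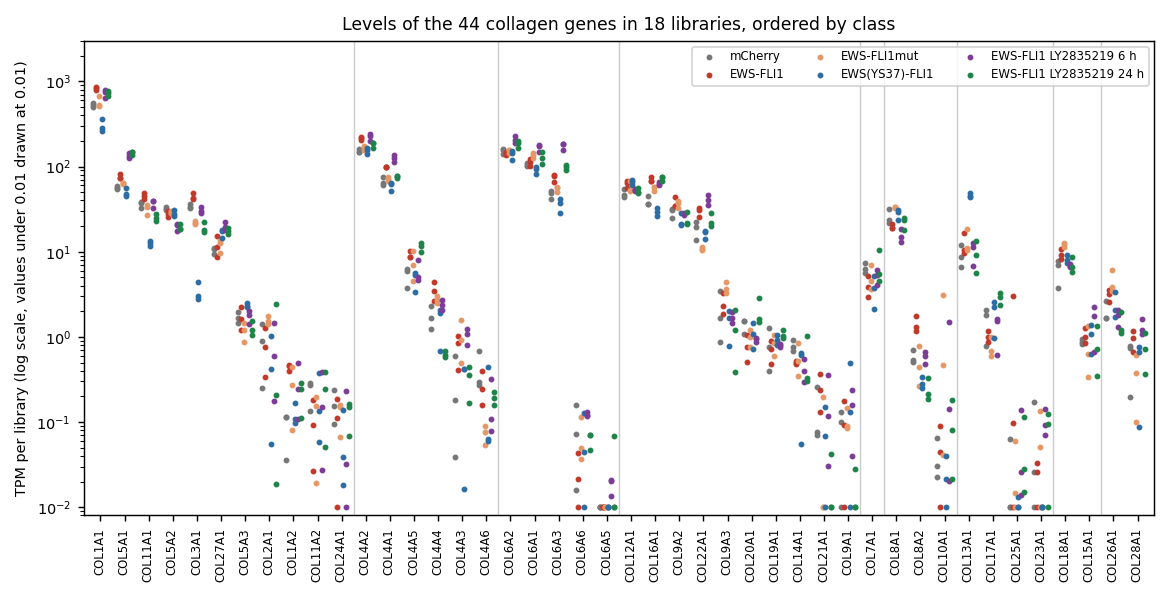
TPM of each of the 44 collagen genes in each of 18 libraries on a log axis, grouped by class (fibrillar, type IV, type VI, FACIT, then the smaller classes) and coloured by group. COL1A1 is highest at an average of 613 TPM, while COL1A2 averages 0.24 TPM, and COL3A1 shows the EWS(YS37)-FLI1 libraries apart from the others.

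Summed over all 44 genes, collagen RNA was 1427 ± 50.3 TPM (mean ± SD, n = 3) in mCherry, 1947 ± 52.1 in EWS-FLI1, 1560.1 ± 102 in EWS-FLI1mut and 1133 ± 107 in EWS(YS37)-FLI1. With LY2835219 it was 2108 ± 177 at 6 h and 1862 ± 102 at 24 h. The 3 EWS-FLI1 libraries lay above, and the 3 EWS(YS37)-FLI1 libraries below, every mCherry library. Fibrillar genes supplied 49.2% of the sum in mCherry, 53.1% in EWS-FLI1 and 36.8% in EWS(YS37)-FLI1, most of it COL1A1. Type IV genes supplied 15.8%, 16.7% and 19.4% in the same 3 groups. Type VI RNA alone went from 329 ± 21.7 TPM in untreated EWS-FLI1 cells to 549 ± 47.9 at 6 h of LY2835219 and 409 ± 41.5 at 24 h.

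With EWS-FLI1, collagen genes were higher far more often than lower. Against mCherry, 17 of 38 tested genes were higher and 2 lower at an adjusted p under 0.05 (edgeR's quasi-likelihood test, Benjamini-Hochberg over 16786 genes), where 11.1% of all genes were higher and 9.95% lower (21.1% either way). The median log2 fold change was 0.45 over the collagen genes and -0.02 over all genes. By class, 5 of 11 fibrillar genes rose and 1 fell, 4 of 6 type IV genes rose, and 8 of 21 other genes rose and 1 fell. The rise was called, though not always of the same size, for COL1A1, COL4A1, COL4A2, COL4A4, COL5A1, COL6A3, COL12A1, COL16A1 and COL22A1 under every alternative run. The count of 17 fell to 11 with transcript length offsets and to 10 with limma on log2(TPM + 1): COL3A1, COL4A5, COL9A2, COL11A1 and COL13A1 lost the call under both, and COL17A1 turned to -0.57 and -0.31. The 2 lower genes, COL5A2 and COL8A1, were both lost under these settings. Without EWS-FLI1 replicate 1, EWS-FLI1 replicate 3, mCherry replicate 1 or mCherry replicate 3 only 1 gene was lower: COL8A1 lost its call without the first 3 of these (-0.45, -0.59 and -0.30) and COL5A2 without the last (-0.20). COL1A2 lost its call with limma on log2(TPM + 1) (0.40) and without EWS-FLI1 replicate 1, EWS-FLI1 replicate 2 or mCherry replicate 1 (1.77, 1.46 and 1.31). COL17A1 lost it without EWS-FLI1 replicate 1 (0.67) or 3 (0.79) and mCherry replicate 2 (0.82) or 3 (0.57), and COL8A2 without EWS-FLI1 replicate 3 (1.07).

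Fewer collagen genes were called with EWS-FLI1mut than with EWS-FLI1, and so were fewer of all genes. Against mCherry 4 of 38 tested genes were higher (COL6A1, COL16A1, COL18A1 and COL26A1) and 2 lower (COL3A1 and COL5A2), with 3.53% of all genes higher and 3.62% lower (7.15% either way). The calls of COL16A1 and COL3A1 held under every alternative run. Leaving out single libraries took the higher count to 2 (EWS-FLI1mut replicate 1, EWS-FLI1mut replicate 2 or mCherry replicate 3) or 1 (mCherry replicate 2), and the lower count to 1 without any single EWS-FLI1mut library, and without the second or the third mCherry library. COL6A1 lost its call without any 1 of the 6 libraries (0.28 to 0.37), COL5A2 without any but mCherry replicate 1 (-0.25 to -0.17), COL26A1 without the first or the second EWS-FLI1mut library or mCherry replicate 2 or 3 (0.56 to 0.67), and COL18A1 without mCherry replicate 2 (0.43). With the 2 fusions set against each other, 13 collagen genes were higher in EWS-FLI1 than in EWS-FLI1mut and 2 lower (8.78% and 7.51% of all genes, 16.3% either way), and 5 of the 6 type IV genes were among the higher, of which COL4A4, COL4A5 and COL4A6 lost the call with length offsets and with limma on log2(TPM + 1). The lower genes, COL6A1 and COL8A1, both lost the call without EWS-FLI1 replicate 1 (-0.31 and -0.56), EWS-FLI1mut replicate 1 (-0.27 and -0.61) or EWS-FLI1mut replicate 2 (-0.30 and -0.64), and COL6A1 also without EWS-FLI1 replicate 2 (-0.26). In turn COL5A3 was called without EWS-FLI1 replicate 2 (0.74) or EWS-FLI1mut replicate 1 (0.73), and COL12A1 without EWS-FLI1mut replicate 1 (0.25).

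With EWS(YS37)-FLI1 collagen genes differed both ways. Against mCherry 5 were higher (COL12A1, COL13A1, COL17A1, COL18A1 and COL27A1) and 8 lower (COL1A1, COL3A1, COL4A4, COL6A3, COL9A2, COL11A1, COL14A1 and COL16A1), with 11.5% of all genes higher and 10.2% lower (21.7% either way). The counts were 3 and 5 both with length offsets and with limma on log2(TPM + 1), where COL4A4, COL9A2, COL14A1, COL17A1 and COL18A1 lost the call. COL6A3 and COL9A2 also lost it without EWS(YS37)-FLI1 replicate 2 (-0.17 and -0.28) or 3 (-0.34 and -0.34) and mCherry replicate 2 (-0.27 and -0.37) or 3 (-0.25 and -0.25), and COL18A1 without EWS(YS37)-FLI1 replicate 1 (0.47) or 3 (0.46) or mCherry replicate 2 (0.24). Compared directly, 16 collagen genes were higher in EWS-FLI1 than in EWS(YS37)-FLI1 and 4 lower (14.8% and 16.3% of all genes, 31.1% either way), with a median log2 difference of 0.54 against -0.02 over all genes. All 6 type IV genes were on the higher side, though COL4A3 and COL4A6 stayed under 1.5 CPM as group means and lost the call with length offsets. The lower genes were COL5A3, COL8A1, COL13A1 and COL27A1, of which only COL13A1 and COL27A1 were left without EWS-FLI1 replicate 3, EWS(YS37)-FLI1 replicate 2 or EWS(YS37)-FLI1 replicate 3. There COL5A3 stood at -0.54, -0.52 and -0.56 and COL8A1 at -0.60, -0.34 and -0.58. COL5A3 was also not called without EWS(YS37)-FLI1 replicate 1 (-0.60) or EWS-FLI1 replicate 2 (-0.37), COL8A1 without EWS-FLI1 replicate 1 (-0.46), and COL14A1, among the higher, with length offsets (0.22), limma on log2(TPM + 1) (0.08) or without EWS(YS37)-FLI1 replicate 2 (1.03), against 1.46 ± 0.43. COL6A1 was called without EWS(YS37)-FLI1 replicate 1 (0.28, against 0.18 ± 0.10).

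With LY2835219 a large share of all genes was called, and the counts of collagen genes are read against it. At 6 h 11 of 38 collagen genes were higher and 3 lower than in untreated EWS-FLI1 cells, where 31.6% of all genes were higher and 33.3% lower (64.9% either way). At 24 h 9 were higher and 10 lower (23.3% and 24.6% of all genes, 48.0% either way). From 6 h to 24 h 19 fell and 3 rose (30.3% and 32.6% of all genes, 62.9% either way), with a median of -0.35 against 0.05 over all genes. Scaling factors bore on the 6 h libraries: without them the median of all genes at 6 h moved from -0.02 to -0.27, 9 collagen genes were higher and 10 lower at 6 h, and from 6 h to 24 h 13 fell and 4 rose. In that fit COL3A1 (-0.36), COL4A5 (-0.39), COL4A6 (-1.21), COL5A2 (-0.31), COL9A2 (-0.41), COL20A1 (-0.91) and COL26A1 (-0.55) were called lower at 6 h. The 6 h rise was called under every alternative run for COL4A1, COL5A1, COL6A1, COL6A2, COL6A3, COL22A1 and COL27A1, and the 24 h fall for COL3A1, COL4A1, COL4A4, COL5A2, COL8A2, COL9A2, COL11A1 and COL26A1. Of the 9 rises at 24 h 6 were called in every run: COL5A1, COL6A2, COL6A3, COL17A1, COL20A1 and COL27A1. Of the 3 falls at 6 h (COL4A4, COL8A2 and COL13A1) 0 were. COL15A1, lower at 24 h, lost the call without EWS-FLI1 replicate 1 (-0.70) or 3 (-0.84) or the 24 h replicate 1 (-0.73) or 3 (-0.80), and also with DESeq2 (-0.85). COL4A5, higher at 24 h, lost it without EWS-FLI1 replicate 1 (0.25) or the 24 h replicate 2 (0.27), and with length offsets or limma on log2(TPM + 1). With limma on log2(TPM + 1) 10 genes fell from 6 h to 24 h, and the falls of COL1A1, COL5A2, COL5A3, COL6A2, COL9A2, COL12A1, COL15A1, COL16A1, COL26A1 and COL27A1 were not called.

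**Figure D2:**
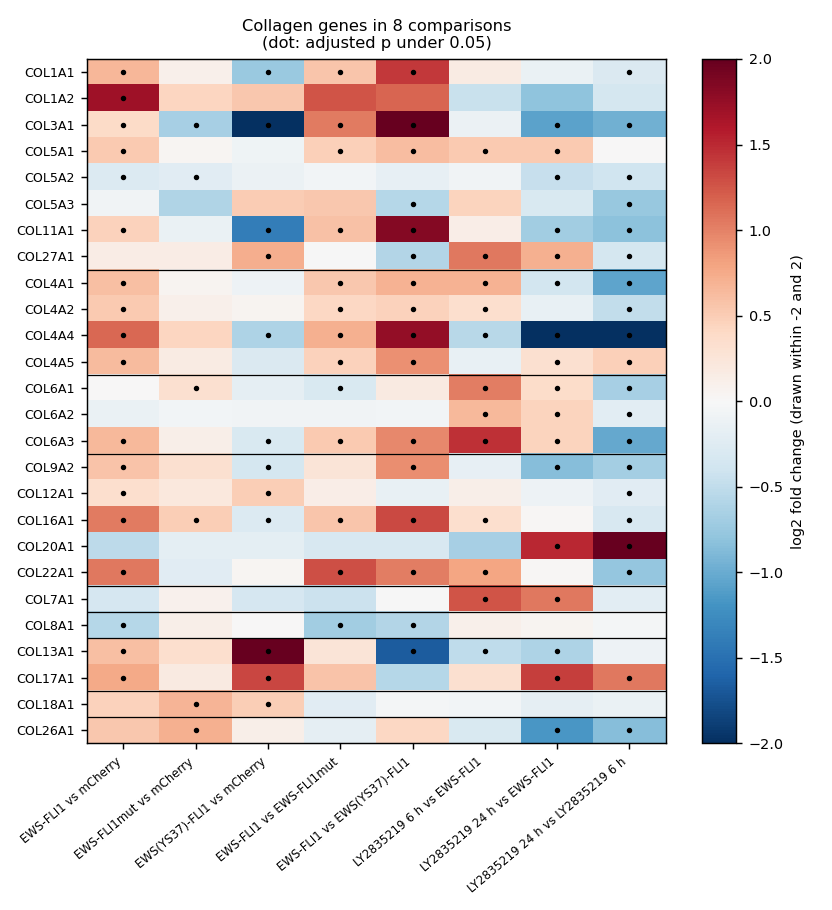
Log2 fold changes of the 26 collagen genes described below in 8 comparisons, with lines between classes; red is higher and blue lower in the group named first, colours stop at -2 and 2, and a dot marks an adjusted p under 0.05. The EWS-FLI1 columns are mostly red, the COL3A1 row runs from 0.38 in EWS-FLI1 to -3.26 in EWS(YS37)-FLI1, and the type VI rows are red at 6 h.

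Among the fibrillar genes the widest movement was that of COL3A1 (chromosome 2, 188974320 to 189012746 on hg38), the single chain of type III collagen of stretchable tissues. Its levels, in TMM-scaled CPM in the order of replicates 1, 2 and 3 as for all genes below, were 124, 131 and 130.3 in mCherry, 147, 187 and 168 in EWS-FLI1, 78.0, 79.7 and 86.2 in EWS-FLI1mut and 16.7, 12.3 and 11.2 in EWS(YS37)-FLI1. The 4 lines did not overlap: EWS-FLI1 was highest, then mCherry, then EWS-FLI1mut, with EWS(YS37)-FLI1 far below. Against mCherry COL3A1 rose by 0.38 ± 0.10 (log2 fold change ± SE, as for all changes below) with EWS-FLI1 (adjusted p = 0.00722 by edgeR), fell by 0.66 ± 0.10 with EWS-FLI1mut and fell by 3.26 ± 0.12 with EWS(YS37)-FLI1 (adjusted p = 3.23e-15 by edgeR). Under LY2835219 it read 164, 156 and 142 at 6 h and 72.4, 92.6 and 73.7 at 24 h. The 6 h libraries overlapped the untreated ones (-0.12 ± 0.10), whereas COL3A1 fell by 1.07 ± 0.10 at 24 h. At 6 h COL3A1 was called lower with limma on log2(TPM + 1) (-0.52) and without scaling factors (-0.36).

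COL1A1, the main chain of bone collagen (chromosome 17, 50183289 to 50201632), stood at 1789, 1572 and 1714 in mCherry, 2731, 2654 and 2677 in EWS-FLI1, 1978, 1749 and 1734 in EWS-FLI1mut and 1113, 903 and 1016 in EWS(YS37)-FLI1. Every EWS-FLI1 library exceeded every mCherry library, and every EWS(YS37)-FLI1 library was below them. It rose by 0.67 ± 0.09 with EWS-FLI1, fell by 0.74 ± 0.09 with EWS(YS37)-FLI1 and showed 0.11 ± 0.09 with EWS-FLI1mut. With the drug its values of 3244, 3211 and 2592 at 6 h and 2458, 2782 and 2152 at 24 h overlapped the untreated EWS-FLI1 libraries at both times, and differences from untreated cells were 0.17 ± 0.09 and -0.13 ± 0.09. They were called as 0.26 without the 6 h replicate 3 and as -0.25 without the 24 h replicate 2. The 6 h and 24 h libraries overlapped too, with a called fall of 0.29 ± 0.09 that was lost without the 24 h replicate 3 (-0.20). COL1A2 was at 0.158, 0.487 and 0.534 in mCherry, 1.12, 1.68 and 1.02 in EWS-FLI1, 0.200, 0.618 and 0.767 in EWS-FLI1mut and 0.455, 0.737 and 0.509 in EWS(YS37)-FLI1, and at 1.22, 1.01 and 0.558 at 6 h and 1.01, 0.495 and 0.674 at 24 h with LY2835219. It was highest in untreated EWS-FLI1 cells (1.69 ± 0.54 against mCherry), on at most 32 counts in a library.

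COL11A1, a chain of type XI collagen that nucleates cartilage fibrils, followed COL1A1 in direction. The libraries held 109, 129 and 131 in mCherry, 171, 165 and 169 in EWS-FLI1, 107, 111 and 119 in EWS-FLI1mut and 50.1, 41.0 and 51.0 in EWS(YS37)-FLI1. Only EWS-FLI1mut overlapped mCherry. COL11A1 rose by 0.45 ± 0.07 with EWS-FLI1 and fell by 1.38 ± 0.08 with EWS(YS37)-FLI1. LY2835219 gave 194, 187 and 172 at 6 h and 103, 105 and 104 at 24 h, 0.13 ± 0.07 at 6 h and a fall of 0.70 ± 0.07 at 24 h. COL27A1, a fibrillar chain of developing cartilage, did not follow: it measured 34.3, 34.4 and 34.4 in mCherry, 39.2, 31.9 and 42.8 in EWS-FLI1, 39.9, 35.2 and 38.8 in EWS-FLI1mut and 58.3, 55.0 and 57.6 in EWS(YS37)-FLI1, with only the EWS(YS37)-FLI1 libraries called (0.73 ± 0.09). EWS-FLI1 against mCherry gave 0.14 ± 0.09, called as 0.27 without EWS-FLI1 replicate 2. Under the drug COL27A1 reached 75.8, 83.2 and 78.6 at 6 h and 62.6, 57.0 and 67.1 at 24 h, all above the untreated cells, with rises of 1.06 ± 0.08 and 0.71 ± 0.08.

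The 3 type V chains, which join type I in fibrils and limit their width, moved apart. COL5A1 had 278, 261 and 283 in mCherry, 393, 400.2 and 394 in EWS-FLI1, 293, 281 and 274 in EWS-FLI1mut and 278, 233 and 261 in EWS(YS37)-FLI1, and EWS-FLI1 lay above the other lines (0.53 ± 0.06 against mCherry). COL5A2 had 141, 144 and 160.1 in mCherry, 124, 126 and 117 in EWS-FLI1, 129.8, 129 and 121 in EWS-FLI1mut and 148, 129 and 134 in EWS(YS37)-FLI1, with log2 differences of -0.28 ± 0.07 in EWS-FLI1 and -0.23 ± 0.07 in EWS-FLI1mut. COL5A3 was lower in level, at 9.01, 8.04 and 7.10 in mCherry, 9.97, 5.56 and 7.57 in EWS-FLI1, 6.55, 3.97 and 5.42 in EWS-FLI1mut and 10.9, 11.95 and 11.6 in EWS(YS37)-FLI1, with no difference from mCherry called. LY2835219 took COL5A1 to 595, 599.7 and 513 at 6 h and 569, 595 and 544 at 24 h, rises of 0.53 ± 0.06 and 0.53 ± 0.06. These were 1.13 and 0.98 with length offsets and 0.81 and 0.91 with limma on log2(TPM + 1), and 0.28 at 6 h without scaling factors. COL5A2 went to 119, 127 and 104 at 6 h and 87.0, 92.2 and 87.7 at 24 h, a fall of 0.46 ± 0.07 at 24 h. At 6 h it showed -0.07 ± 0.07, called lower with limma on log2(TPM + 1) (-0.49) and without scaling factors (-0.31). The difference between 24 h and 6 h was -0.39 ± 0.07, not called under those settings (-0.02 and -0.13). COL5A3 read 8.56, 11.0 and 12.1 at 6 h and 7.48, 6.05 and 5.24 at 24 h, a fall of 0.75 ± 0.20 from 6 h to 24 h. Its 6 h difference from untreated cells, 0.45 ± 0.20, was called without EWS-FLI1 replicate 1 (0.68) or the 6 h replicate 1 (0.58). The TPM ratio of COL5A1 to COL5A2 went from 1.75 ± 0.107 (mean ± SD, n = 3) in mCherry to 2.73 ± 0.253 in EWS-FLI1, 6.83 ± 0.462 at 6 h and 7.42 ± 0.568 at 24 h. These TPM sums include the short COL5A1 transcripts described below, so the ratio is not one of full-length coding RNA. On the CPM scale the drug shift was smaller, with COL5A1 at 0.53 and COL5A2 at -0.07 at 6 h.

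**Figure D3:**
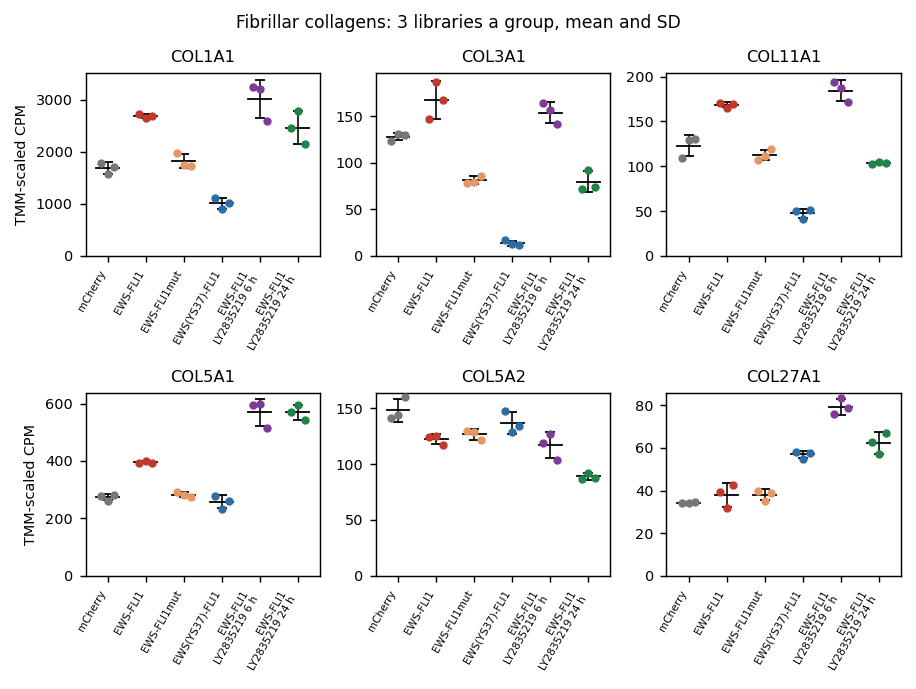
TMM-scaled CPM of 6 fibrillar collagen genes in 6 groups; points are libraries (3 a group), bars the mean and SD. COL3A1 averages 13.4 in EWS(YS37)-FLI1 against 128 in mCherry, while COL27A1 is highest with LY2835219 at 6 h.

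The drug response of COL5A1 differed between its transcripts. The full-length coding transcript ENST00000371817 gave 62.0, 60.5 and 57.8 TPM in untreated EWS-FLI1 cells, 59.5, 61.7 and 53.0 at 6 h and 76.1, 78.9 and 70.3 at 24 h, so that the 6 h values overlapped the untreated ones on this scale. TPM carries no TMM factor, and these factors were lower at 6 h (0.856 to 0.873) than in untreated EWS-FLI1 cells (1.016 to 1.031), so the overlap depends on the scale. A transcript annotated as a retained intron, ENST00000460264, gave 6.52, 3.73 and 4.05, then 20.1, 23.3 and 18 and 24.7, 18.5 and 24.2. The other one of that kind, ENST00000465877, gave 6.58, 5.25 and 6.52, then 26.9, 20.3 and 19.0 and 24.7, 23.5 and 25.2. Both short transcripts were higher in every treated library than in every untreated one. Transcripts annotated as retained introns made up 14.2% of COL5A1's TPM in untreated cells, 31.7% at 6 h and 32.6% at 24 h. These transcript levels are estimates shared out by kallisto among overlapping transcripts, and the cause was not tested.

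**Figure D4:**
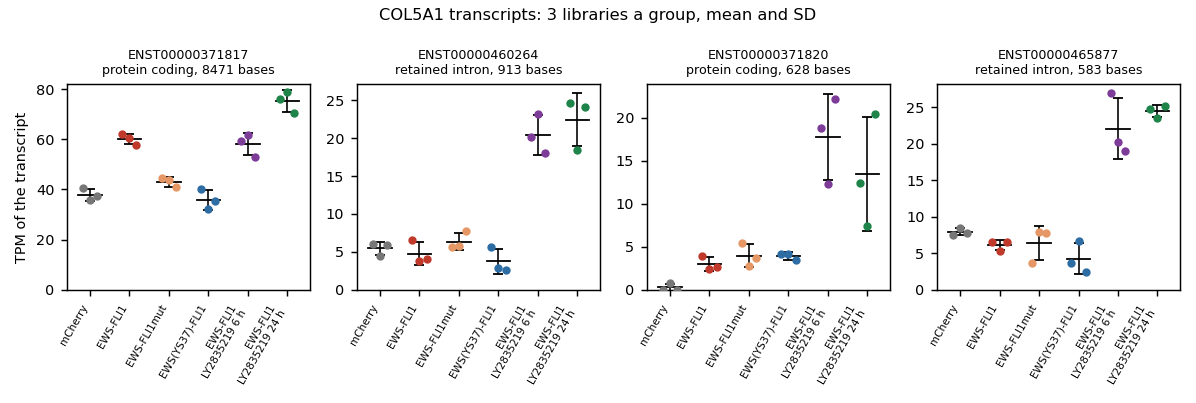
TPM of the 4 COL5A1 transcripts with the highest levels in 6 groups, with points for libraries and bars for the mean and SD of 3. The full-length transcript averages 60.1 in untreated EWS-FLI1 cells and 58.1 at 6 h, whereas the 3 short transcripts are several times higher at 6 h and 24 h.

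COL4A1 and COL4A2, the 2 chains of the common type IV network, were both highest with EWS-FLI1 among the 4 untreated lines. COL4A1 measured 289, 303 and 306 in mCherry, 456, 439 and 461 in EWS-FLI1, 335, 299.8 and 297 in EWS-FLI1mut and 294, 244 and 299 in EWS(YS37)-FLI1. COL4A2 measured 624, 656 and 661 in mCherry, 929.8, 889 and 968 in EWS-FLI1, 752, 679 and 650.0 in EWS-FLI1mut and 708, 599 and 717 in EWS(YS37)-FLI1. The EWS-FLI1 libraries were above all others of the 4 lines in both genes, with rises against mCherry of 0.59 ± 0.08 and 0.52 ± 0.08; EWS-FLI1mut gave 0.05 ± 0.08 and 0.10 ± 0.08, and EWS(YS37)-FLI1 gave -0.10 ± 0.08 and 0.06 ± 0.08. With LY2835219 COL4A1 reached 779.6, 749 and 657 at 6 h and 361, 376 and 318 at 24 h. All its 6 h libraries were above, and all its 24 h libraries below, the untreated EWS-FLI1 cells: it rose by 0.69 ± 0.08 (0.35 with limma on log2(TPM + 1) and 0.44 without scaling factors), then stood 0.36 ± 0.08 lower than untreated on the log2 scale. COL4A2 reached 1255, 1246 and 1019.6 at 6 h and 854, 904 and 753 at 24 h, a rise of 0.34 ± 0.08 at 6 h (not called without scaling factors or with limma on log2(TPM + 1)) and -0.15 ± 0.08 at 24 h, called as -0.24 without the 24 h replicate 2. The COL4A1 to COL4A2 TPM ratio, 0.458 ± 0.0160 in untreated EWS-FLI1 cells, was 0.564 ± 0.0141 at 6 h and 0.418 ± 0.0145 at 24 h. In the other lines it was 0.443 ± 0.0236 (mCherry), 0.4335 ± 0.00779 (EWS-FLI1mut) and 0.384 ± 0.0149 (EWS(YS37)-FLI1). Every EWS(YS37)-FLI1 library was below every library of the other untreated lines in this ratio.

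The minor type IV chains belong to the networks of kidney, eye and ear. COL4A4 stood at 10.3, 9.75 and 9.87 in mCherry, 19.4, 27.1 and 20.04 in EWS-FLI1, 14.3, 12.2 and 13.9 in EWS-FLI1mut and 5.46, 7.21 and 6.87 in EWS(YS37)-FLI1. EWS-FLI1 was highest and EWS(YS37)-FLI1 lowest, with no overlap between them and mCherry: 1.15 ± 0.14 and -0.61 ± 0.15 against mCherry. The EWS(YS37)-FLI1 fall was not called, at -0.13, with length offsets and at -0.13 with limma on log2(TPM + 1), and on the TPM scale these libraries overlapped mCherry (1.55 ± 0.757 and 1.73 ± 0.542, mean ± SD). The drug gave 13.2, 16.4 and 15.6 at 6 h and 3.82, 4.07 and 3.37 at 24 h, falls of 0.56 ± 0.14 (not called with length offsets or limma on log2(TPM + 1)) and 2.56 ± 0.15. The 24 h fall was the largest of any collagen gene in a comparison with untreated EWS-FLI1 cells, and with limma on log2(TPM + 1) it was -1.46. COL4A3, the head-to-head neighbour of COL4A4, was near 1 CPM and called only between EWS-FLI1 and EWS(YS37)-FLI1 (1.51 ± 0.53). That call was lost without EWS-FLI1 replicate 2 (1.23) or EWS(YS37)-FLI1 replicate 2 (1.06) or 3 (1.53). COL4A5 had 12.5, 12.5 and 12.5 in mCherry, 17.3, 20.8 and 20.1 in EWS-FLI1, 13.05, 14.3 and 14.9 in EWS-FLI1mut and 10.5, 9.53 and 10.7 in EWS(YS37)-FLI1, then 19.3, 17.3 and 15.9 at 6 h and 23.0, 25.4 and 24.7 at 24 h with LY2835219. It rose by 0.63 ± 0.10 with EWS-FLI1 and by 0.33 ± 0.10 at 24 h, the latter at 0.29 and not called by limma on log2(TPM + 1), at 0.38 and not called when length offsets were used, and lost without EWS-FLI1 replicate 1 or the 24 h replicate 2. Its neighbour COL4A6 stayed at or under 1.24 CPM in every library. COL4A6 was higher in EWS-FLI1 than in EWS-FLI1mut (1.79 ± 0.51) and EWS(YS37)-FLI1 (1.55 ± 0.51), both lost without EWS-FLI1 replicate 1 (1.79 and 1.55) or 3 (1.65 and 1.40). The former was also lost without EWS-FLI1mut replicate 1 (1.72) or 2 (1.72), and the latter without EWS(YS37)-FLI1 replicate 2 (1.51) or 3 (1.19).

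All 4 tested type VI genes were called higher at 6 h of LY2835219, where 31.6% of all genes were higher and 33.3% lower. With 4 genes a single call weighs heavily. Among the untreated lines COL6A3, the largest chain of the type VI filament, stood at 280.1, 338 and 345 in mCherry, 515, 455 and 543 in EWS-FLI1, 366, 354 and 329.7 in EWS-FLI1mut and 304, 205 and 270.3 in EWS(YS37)-FLI1. EWS-FLI1 was above the other lines (0.65 ± 0.11), while EWS(YS37)-FLI1 overlapped mCherry in spite of a called fall of 0.31 ± 0.11. The treated cells had 1477, 1472 and 1236 at 6 h and 717, 711 and 626 at 24 h, rises of 1.47 ± 0.11 and 0.44 ± 0.10. COL6A1 had 275, 289 and 311 in mCherry, 294, 279.6 and 306.8 in EWS-FLI1, 377, 371 and 345 in EWS-FLI1mut and 287, 212 and 276 in EWS(YS37)-FLI1, and EWS-FLI1 gave 0.01 ± 0.10 against mCherry. With the drug it had 649.6, 618 and 529.6 at 6 h and 375, 425 and 332 at 24 h, rises of 1.03 ± 0.10 and 0.36 ± 0.10. The 6 h rise was 0.56 with limma on log2(TPM + 1), and the 24 h rise was not called there or with length offsets and was 0.24 without the 24 h replicate 2. COL6A2 had 356, 337 and 382 in mCherry, 314, 319 and 351 in EWS-FLI1, 354, 335 and 341 in EWS-FLI1mut and 374, 299 and 354 in EWS(YS37)-FLI1, all groups overlapping, with no line called against mCherry. It reached 553, 536 and 462 at 6 h and 451, 492 and 399.5 at 24 h, rises of 0.66 ± 0.08 (0.41 without scaling factors) and 0.45 ± 0.08. Its main coding transcript ENST00000300527 gave 103 ± 3.37 TPM untreated and 101 ± 10.6 at 6 h, while the short processed transcript ENST00000460886 went from 5.54 ± 2.44 to 31.9 ± 8.16. COL6A6 averaged 0.18 CPM untreated and 1.16 at 6 h (2.68 ± 0.72), a call lost with limma on log2(TPM + 1). From 6 h to 24 h COL6A1 fell by 0.67 ± 0.09 and COL6A3 by 1.03 ± 0.11. The fall of COL6A2 (0.21 ± 0.08) turned to 0.05 without scaling factors, and its call was lost without the 6 h replicate 1 (-0.17) or 2 (-0.19) or the 24 h replicate 1 (-0.21) or 3 (-0.13).

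COL7A1, which builds the anchoring fibrils under epithelia, had 15.3, 12.8 and 16.0 in mCherry, 12.1, 10.3 and 12.5 in EWS-FLI1, 15.9, 13.9 and 17.0 in EWS-FLI1mut and 12.2, 10.7 and 12.2 in EWS(YS37)-FLI1 and no line called against mCherry. With LY2835219 it had 24.6, 29.5 and 29.8 at 6 h and 21.3, 16.8 and 34.1 at 24 h, all above the untreated EWS-FLI1 cells, with rises of 1.26 ± 0.18 and 1.05 ± 0.17. On the TPM scale the same groups gave 4.01 ± 1.13, 5.17 ± 0.999 and 6.87 ± 3.26, and neither call held with length offsets or limma on log2(TPM + 1). Only 28.3% of its TPM was on coding transcripts. The 6 h to 24 h difference of -0.21 ± 0.17 became a called -0.55 without the 24 h replicate 3, the highest library.

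**Figure D5:**
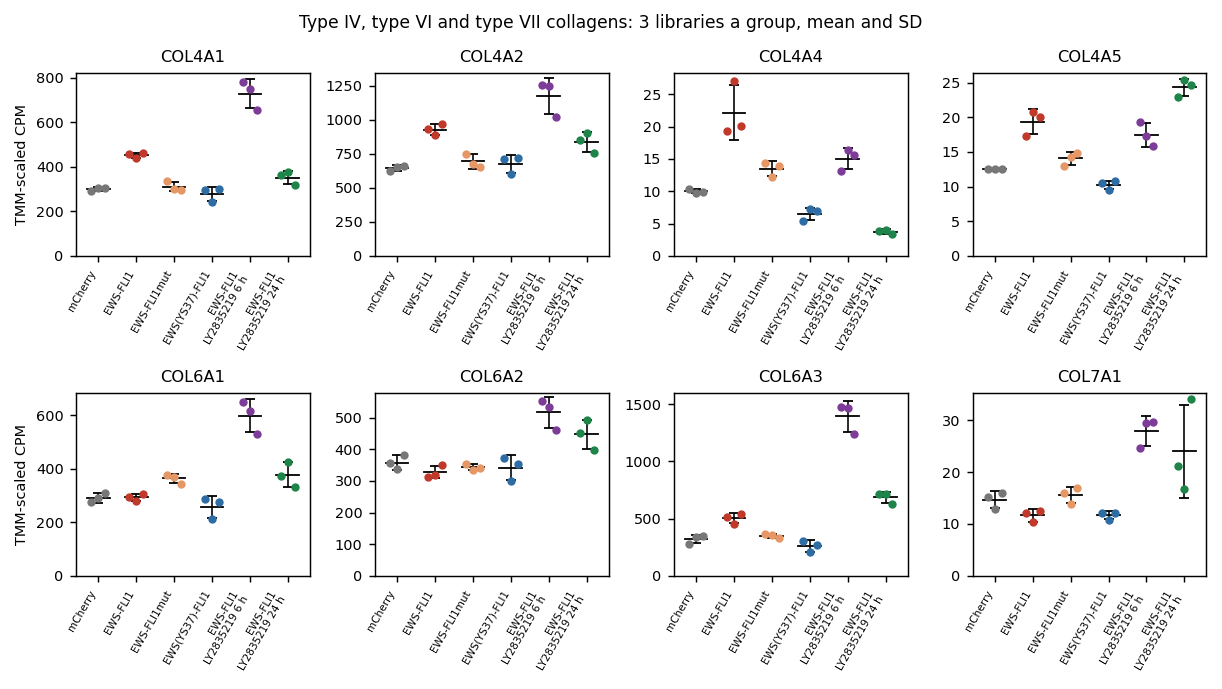
TMM-scaled CPM of 4 type IV genes, 3 type VI genes and COL7A1 in 6 groups; points are libraries (3 a group), bars the mean and SD. COL4A1 and COL6A3 peak at 6 h of LY2835219, COL4A4 is lowest at 24 h, averaging 3.75, and COL4A5 is highest there, averaging 24.3.

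Among the FACIT genes COL16A1, a fibril-surface collagen, showed the clearest order of the lines. Its libraries had 90.7, 84.6 and 89.5 in mCherry, 182, 190.4 and 175 in EWS-FLI1, 125, 116 and 130.2 in EWS-FLI1mut and 79.98, 69.9 and 69.4 in EWS(YS37)-FLI1, with no overlap between any of the lines. COL16A1 rose by 1.04 ± 0.06 with EWS-FLI1 and 0.49 ± 0.06 in the EWS-FLI1mut line and fell by 0.27 ± 0.06 with EWS(YS37)-FLI1 (-0.41 with limma on log2(TPM + 1)). Its drug values were 239.9, 232 and 218 at 6 h and 179, 186 and 188 at 24 h, called at 6 h (0.34 ± 0.06) but not without scaling factors or with length offsets, and at -0.15 with limma on log2(TPM + 1), and 0.02 ± 0.06 at 24 h. COL22A1, found at tissue junctions such as that of muscle and tendon, had 25.9, 31.8 and 42.0 in mCherry, 71.0, 63.7 and 73.4 in EWS-FLI1, 30.99, 26.1 and 28.3 in EWS-FLI1mut and 39.3, 26.6 and 36.2 in EWS(YS37)-FLI1. Only EWS-FLI1 was called (1.06 ± 0.14, and 0.66 with length offsets), although EWS-FLI1mut, at -0.22 ± 0.15, was called lower as -0.85 with length offsets. The drug gave 125, 138 and 98.5 at 6 h and 68.1, 74.4 and 69.2 at 24 h: a rise of 0.80 ± 0.13 at 6 h (0.45 with limma on log2(TPM + 1)) and 0.02 ± 0.14 at 24 h.

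COL9A2, a chain of cartilage type IX collagen, had 34.1, 35.9 and 42.2 in mCherry, 52.0, 65.0 and 50.3 in EWS-FLI1, 45.4, 45.3 and 48.9 in EWS-FLI1mut and 32.3, 26.8 and 29.4 in EWS(YS37)-FLI1, a rise of 0.58 ± 0.12 with EWS-FLI1 and a fall of 0.34 ± 0.12 with EWS(YS37)-FLI1. Under the drug it had 50.8, 50.1 and 48.0 at 6 h and 26.2, 38.6 and 27.8 at 24 h, and fell by 0.85 ± 0.12 at 24 h. COL12A1, a fibril-surface collagen of tendon and bone, had 378, 319.7 and 308 in mCherry, 444, 431 and 397 in EWS-FLI1, 433, 371 and 354 in EWS-FLI1mut and 449.7, 494 and 468 in EWS(YS37)-FLI1. It rose both with EWS-FLI1 (0.34 ± 0.07) and EWS(YS37)-FLI1 (0.49 ± 0.07), and without mCherry replicate 1, its highest mCherry library, EWS-FLI1mut was called too (0.30, against 0.20 ± 0.07). The drug libraries had 473, 470.3 and 443 at 6 h and 415, 384 and 391 at 24 h, neither time called against untreated cells. COL20A1 was low, at 2.74, 2.38 and 3.90 in mCherry, 1.48, 2.52 and 2.31 in EWS-FLI1, 1.90, 2.06 and 3.94 in EWS-FLI1mut and 2.501, 2.95 and 2.44 in EWS(YS37)-FLI1 with no line called against mCherry. It went to 1.59, 1.26 and 1.12 at 6 h and 5.57, 5.01 and 7.36 at 24 h: -0.66 ± 0.32 at 6 h, called as -0.87 without EWS-FLI1 replicate 1, and a rise of 1.51 ± 0.29 at 24 h (0.74 with limma on log2(TPM + 1)). COL14A1, at or under 2.45 CPM in every library, was lower with EWS(YS37)-FLI1 than with mCherry (-1.88 ± 0.43).

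The transmembrane collagens included the largest rise of any collagen gene with EWS(YS37)-FLI1. COL13A1, a cell-surface collagen of adhesion sites (chromosome 10, 69801867 to 69964275), had 9.33, 9.81 and 10.3 in mCherry, 15.9, 12.7 and 16.1 in EWS-FLI1, 13.9, 12.5 and 10.8 in EWS-FLI1mut and 49.6, 42.5 and 49.0 in EWS(YS37)-FLI1. The EWS(YS37)-FLI1 libraries were far above those of the other lines. COL13A1 rose by 2.26 ± 0.12 there (adjusted p = 6.36e-12 by edgeR) and by 0.60 ± 0.13 with EWS-FLI1. With LY2835219 it had 10.2, 11.9 and 9.37 at 6 h and 10.7, 8.64 and 9.80 at 24 h, falls of 0.51 ± 0.13 and 0.61 ± 0.13 that were not called with limma on log2(TPM + 1) or with length offsets, where 6 h stood at 0.08. Coding transcripts held 46.0% of its TPM. COL17A1, the hemidesmosome collagen of epithelia, had 2.27, 1.95 and 1.28 in mCherry, 3.48, 2.78 and 3.06 in EWS-FLI1, 2.349, 1.60 and 2.302 in EWS-FLI1mut and 4.604, 5.27 and 3.97 in EWS(YS37)-FLI1, rises of 0.76 ± 0.25 with EWS-FLI1 and 1.33 ± 0.24 with EWS(YS37)-FLI1. Neither was called with length offsets (-0.57 and 0.39) or limma on log2(TPM + 1) (-0.31 and 0.19), where the EWS-FLI1 difference changed sign. With the drug COL17A1 had 2.94, 4.04 and 4.72 at 6 h and 8.86, 7.10 and 8.45 at 24 h, a rise of 1.39 ± 0.23 at 24 h.

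Of the remaining described genes, COL8A1, a short-chain collagen of vessel walls and the cornea, had 45.9, 28.3 and 28.6 in mCherry, 19.0, 26.2 and 24.1 in EWS-FLI1, 40.1, 39.7 and 31.9 in EWS-FLI1mut and 24.5, 44.2 and 34.8 in EWS(YS37)-FLI1. The EWS-FLI1 libraries were below the mCherry ones (-0.57 ± 0.20). COL8A1 stood at 19.9, 27.2 and 27.1 at 6 h and 22.2, 20.5 and 29.2 at 24 h with the drug, close to untreated cells (0.10 ± 0.20 and 0.05 ± 0.20). COL18A1, a basement membrane multiplexin and the source of endostatin, had 29.9, 14.1 and 26.6 in mCherry, 33.0, 35.8 and 28.6 in EWS-FLI1, 39.3, 36.2 and 38.7 in EWS-FLI1mut and 34.4, 30.9 and 34.6 in EWS(YS37)-FLI1. Its mCherry replicate 2 was lowest, and COL18A1 shares 23.3% of its 31-base words with the gene SLC19A1, so part of its counts is uncertain. It rose by 0.69 ± 0.16 with EWS-FLI1mut and 0.49 ± 0.17 in the EWS(YS37)-FLI1 line. EWS-FLI1 gave 0.46 ± 0.17, called without EWS-FLI1 replicate 3 (0.55), mCherry replicate 1 (0.67) or mCherry replicate 3 (0.56). The drug libraries of COL18A1 had 31.1, 32.9 and 30.2 at 6 h and 26.5, 35.0 and 24.5 at 24 h. COL26A1 had 5.11, 3.65 and 3.095 in mCherry, 5.77, 5.88 and 5.53 in EWS-FLI1, 7.05, 6.91 and 5.53 in EWS-FLI1mut and 3.75, 4.37 and 4.73 in EWS(YS37)-FLI1, higher with EWS-FLI1mut (0.71 ± 0.21). EWS-FLI1 gave 0.53 ± 0.21, called as 0.77 without mCherry replicate 1. COL26A1 then had 5.32, 3.60 and 4.96 at 6 h and 2.07, 2.92 and 2.70 at 24 h with the drug, a fall of 1.16 ± 0.22 at 24 h (-0.76 with limma on log2(TPM + 1)).

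Another 6 genes were called in at least 1 comparison under the level of 5 CPM set for description: COL4A3, COL4A6, COL6A6, COL8A2, COL14A1 and COL15A1. COL8A2, the partner of COL8A1 in type VIII collagen, was singled out after its values were seen, since it was called in 6 of 8 comparisons. It had 1.74, 2.498 and 1.87 in mCherry, 3.94, 4.51 and 6.18 in EWS-FLI1, 0.800, 1.39 and 2.66 in EWS-FLI1mut and 0.909, 1.000 and 1.27 in EWS(YS37)-FLI1, and 2.81, 2.59 and 2.05 at 6 h and 1.17, 0.550 and 0.778 at 24 h with LY2835219. COL8A2 rose by 1.26 ± 0.34 with EWS-FLI1 and fell by 0.97 ± 0.33 at 6 h and 2.54 ± 0.37 at 24 h. With limma on log2(TPM + 1) these were 0.61, -0.61 and -0.96. The 6 h call was lost without EWS-FLI1 replicate 3 (-0.78) or the 6 h replicate 3 (-0.86). The EWS-FLI1 rise was lost without EWS-FLI1 replicate 3 (1.07). COL8A1 went the other way with EWS-FLI1, but its fall kept its call in only 8 of 14 alternative runs. COL15A1 averaged 0.82 CPM at 24 h and 2.11 at 6 h. A further 6 tested genes were called in no comparison (COL2A1, COL9A3, COL11A2, COL19A1, COL24A1 and COL28A1). Of these, COL2A1 was called lower at 24 h without the 24 h replicate 3 (-3.38 against untreated cells and -2.93 against 6 h), and COL24A1 was called higher at 24 h than at 6 h without the 6 h replicate 1 (2.79). A last 6 did not pass the filter (COL6A5, COL9A1, COL10A1, COL21A1, COL23A1 and COL25A1), with at most 14 counts in a library.

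The genes that fold, export, cross-link and bind collagen went both ways with EWS-FLI1, where 11.1% of all genes were higher and 9.95% lower, so that counts near those shares are no result about a list. Of 20 folding and hydroxylation genes 3 were higher and 2 lower than in mCherry, with a median of 0.00 (log2), and of 13 export genes 6 were higher and 1 lower. Of 16 tested cleavage and cross-linking genes 4 were higher and 3 lower. LOXL1, a lysyl oxidase that cross-links matrix, had 149, 149.8 and 163 CPM in mCherry and 309, 343 and 312 in EWS-FLI1 (1.06 ± 0.08), and PXDN, the peroxidase that makes the sulfilimine bonds of type IV collagen, had 241, 266 and 266 in mCherry and 417, 402 and 428 in EWS-FLI1 (0.69 ± 0.08). Of 15 other basement membrane genes, laminins, nidogens, perlecan and agrin, 9 were higher and 0 lower, among them HSPG2 (0.74 ± 0.10) and LAMB1 (0.64 ± 0.07). Rises in this list were not limited to EWS-FLI1. With EWS-FLI1mut 5 were higher and 1 lower than in mCherry (3.53% and 3.62% of all genes). With EWS(YS37)-FLI1 5 were higher and 0 lower (11.5% and 10.2%). EWS-FLI1 against EWS-FLI1mut gave 4 higher and 1 lower (8.78% and 7.51%). Among 12 tested fibril-associated matrix genes 6 were higher and 1 lower with EWS-FLI1 than in mCherry, with BGN at 2.97 ± 0.32 on a level that rose from 0.85 to 6.63 CPM, and FN1 at 0.77 ± 0.16.

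Among the collagen receptors ITGA11 moved most with EWS-FLI1 and at 24 h. ITGA11, the integrin chain that binds fibrillar collagen, had 11.7, 13.2 and 15.7 CPM in mCherry, 26.8, 28.3 and 28.3 in EWS-FLI1, 6.35, 9.59 and 11.2 in EWS-FLI1mut and 3.41, 2.001 and 2.49 in EWS(YS37)-FLI1, and 18.2, 19.8 and 15.7 at 6 h and 2.23, 1.60 and 2.80 at 24 h with LY2835219. EWS-FLI1 was above, and EWS(YS37)-FLI1 below, every mCherry library. It rose by 1.04 ± 0.18 with EWS-FLI1, fell by 2.36 ± 0.21 with EWS(YS37)-FLI1 and fell by 3.65 ± 0.21 at 24 h. ITGA2, a receptor chain that also binds type IV collagen, rose by 0.83 ± 0.12, 1.05 ± 0.12 and 0.72 ± 0.12 in the 3 fusion lines and by 2.60 ± 0.11 at 6 h. DDR2, a receptor kinase for fibrillar collagen, fell by 0.77 ± 0.09 with EWS-FLI1 and 0.39 ± 0.09 with EWS-FLI1mut. Over the 8 receptor genes, 4 were higher and 1 lower with EWS-FLI1, 1 and 2 with EWS-FLI1mut, and 1 and 2 with EWS(YS37)-FLI1. Over all genes these shares were 11.1% and 9.95%, 3.53% and 3.62%, and 11.5% and 10.2%, and with 8 genes a single call weighs heavily.

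With LY2835219 31.6% of all genes were higher and 33.3% lower at 6 h, and 23.3% and 24.6% at 24 h, and the counts here are read against those. Of the folding genes, at 6 h 11 of 20 were higher and 3 lower than in untreated EWS-FLI1 cells; at 24 h 5 were higher and 7 lower. SERPINH1, the collagen-specific chaperone HSP47, had 393, 426 and 426 CPM untreated, then 686, 673 and 614 at 6 h and 312, 346 and 304 at 24 h. It rose by 0.66 ± 0.06 at 6 h and fell by 1.04 ± 0.06 from 6 h to 24 h. HSPA5, the general chaperone of the endoplasmic reticulum, rose by 0.87 ± 0.05 at 6 h and stood 0.91 ± 0.05 below untreated cells at 24 h on the log2 scale. P3H2, a prolyl 3-hydroxylase known for acting on type IV collagen, fell by 2.23 ± 0.09 at 24 h. Of 16 cleavage and cross-linking genes 5 were higher and 8 lower at 24 h: LOX fell by 1.32 ± 0.08 and LOXL4 by 1.26 ± 0.07, and ADAMTS14, a propeptide cleaving enzyme, rose by 2.99 ± 0.29. Of the 15 basement membrane genes 7 were higher and 3 lower at 6 h, among them LAMB3, a laminin chain of epithelial basement membranes, at 1.71 ± 0.08, while LAMA4 fell by 1.89 ± 0.13 at 24 h.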

How the data were processed

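RNA-seq libraries were quantified with kallisto 0.46 against hg38, per the submitters' processing notes, which also name CASAVA. The transcript set, index and strand setting are not given in the sources used here, and the labels name 2 library kits without tying them to libraries. The authors deposited estimated counts, TPM and effective lengths per transcript for each library. Here the expected counts and TPM were summed per gene through GENCODE 29 transcript IDs (169797 of 188753 transcripts matched; the others held 2.59% to 2.74% of counts), and count sums were rounded.

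One edgeR 4.0.16 quasi-likelihood fit (R 4.3.3, TMM scaling, filterByExpr) covered all 18 libraries and 16786 genes, with 12 residual degrees of freedom; a difference was called at a Benjamini-Hochberg adjusted p under 0.05. Totals of 16261034 to 20270637 counts per library limit genes of a few counts. kallisto shares reads among overlapping transcripts, so gene sums can hold reads of retained-intron and overlapping annotations. Alternatives were RLE scaling, no scaling factors, DESeq2 1.42.0, no low-count filter, transcript length offsets, limma 3.58.1 on log2(TPM + 1), only the groups compared, the replicate number as a block and leaving out each library. The procedure was tested on simulated data.

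Genes described in every library were those called in at least 1 comparison with at least 5 CPM in the highest group, plus COL1A1, COL1A2, COL3A1, COL4A1 and COL4A2; partner genes named are from the called ones with the 3 largest changes of a list, and some are not reported here. The members and all lists were chosen with earlier results of these data known.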

Additional observations from a re-analysis of the deposited data

Results flagged for a closer look

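In 9 cases a collagen gene was called in opposite directions in 2 groups against the same reference, and the difference between those groups was itself called by edgeR at an adjusted p under 0.05. Against mCherry, COL3A1 was higher with EWS-FLI1 and lower with EWS-FLI1mut, a log2 difference of 1.04. COL3A1 was also lower with EWS(YS37)-FLI1, 3.65 below EWS-FLI1 on the log2 scale. With the same directions, EWS-FLI1 exceeded EWS(YS37)-FLI1 by 1.41 for COL1A1, 1.76 for COL4A4, 0.96 for COL6A3, 0.92 for COL9A2, 1.83 for COL11A1 and 1.32 for COL16A1. COL4A1 was higher than in untreated EWS-FLI1 cells at 6 h of LY2835219 and lower at 24 h, with a difference between the times of -1.05. Against mCherry the falls of COL4A4 and COL9A2 with EWS(YS37)-FLI1 were not called with transcript length offsets (-0.13 and -0.26) or limma on log2(TPM + 1) (-0.13 and -0.31), nor was the EWS-FLI1 rise of COL3A1, COL9A2 and COL11A1. The EWS(YS37)-FLI1 fall of COL6A3 against mCherry was not called with DESeq2 (-0.31) or with only the 2 groups compared (-0.31). It was also lost without replicate 2 (-0.17) or 3 (-0.34) of EWS(YS37)-FLI1, or replicate 2 (-0.27) or 3 (-0.25) of mCherry. The FLI1 level also differed between these lines, and its part was not tested.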

How the results depend on the processing

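Of 128 called differences, 75 were called in the same direction under every alternative run. With transcript length offsets, and then with limma on log2(TPM + 1), the counts were 11 and 10 higher and 0 and 0 lower for EWS-FLI1 against mCherry, 2 and 2 higher for EWS-FLI1mut, 3 and 3 higher and 5 and 5 lower for EWS(YS37)-FLI1, 1 and 1 lower for EWS-FLI1 against EWS-FLI1mut, and 1 and 6 lower at 6 h; limma also gave 7 higher at 6 h and 10 lower from 6 h to 24 h. DESeq2 gave 1 lower for EWS-FLI1 against mCherry and 1 against EWS-FLI1mut. Without scaling factors 1 was lower with EWS-FLI1mut and 10 at 6 h. As TMM counts per kilobase in place of TPM, fibrillar genes summed to 1177 at 6 h, type IV genes to 235.6 with EWS-FLI1mut and 438.7 at 6 h, and the others to 547.6 and 942.7.

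Signs turned for COL17A1 with EWS-FLI1 (-0.57 with offsets, -0.31 with limma), at 6 h for COL11A1 (-0.29, limma), COL13A1 (0.076, offsets) and COL16A1 (-0.15, limma), and from 6 h to 24 h for COL1A1 (0.0077), COL8A1 (0.50) and COL16A1 (0.20) with limma and COL6A2 (0.049) and COL12A1 (0.040) without scaling factors. The causes were not tested.

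Leaving out 1 library at a time, higher and lower counts ranged from 15 to 18 and 1 to 2 for EWS-FLI1, 1 to 4 and 1 to 2 for EWS-FLI1mut, 4 to 5 and 6 to 8 for EWS(YS37)-FLI1, 12 to 14 and 0 to 2 for EWS-FLI1 against EWS-FLI1mut, 13 to 17 and 2 to 3 against EWS(YS37)-FLI1, 11 to 12 and 2 to 4 at 6 h, 8 to 9 and 9 to 12 at 24 h, and 3 to 4 and 18 to 19 from 6 h to 24 h.

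Libraries with the same replicate number share only a number: their deviations correlated at -0.05 to 0.06, with 0 of 45 pairs over 0.1. With the replicate number as a block, COL12A1 with EWS-FLI1mut (0.20) and COL5A3 at 6 h (0.48) were called and COL15A1 at 24 h (-0.83) was not, so counts were 5 higher, 12 higher and 9 lower; no other call changed. Genes near 1 CPM rest on few counts.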
